A study of Mus musculus with 7 samples.

Results

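The 10 genes described here handle dietary iron in the duodenum: Cybrd1, Slc11a2 and Slc46a1 at the luminal side of the enterocyte, Fth1 and Ftl1 in storage, Slc40a1 and Heph at export, and Tfrc, Hfe and Epas1 in uptake from blood and in control. They were chosen by name in the deposited gene table, which has 47069 genes, and all 10 were found and tested. RNA was sequenced from the duodenum of male mice aged 8 to 12 weeks, 1 library per mouse. Their strain is given as C57BL/6, and as C57BL/6J in the design text. The 4 control mice received vehicle, 0.5% carboxymethylcellulose, and the 3 treated mice received 50 mg/kg/day of T09 (T0901317), a synthetic agonist of the liver X receptors, which sense oxysterols. The sources used here state neither the length of treatment nor the iron content of the diet. T0901317 is known to act on other nuclear receptors as well, so the groups differ by the compound and not by LXR alone.

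Dietary ferric iron is reduced at the brush border and enters the enterocyte through a proton-coupled transporter. Iron that is not needed is kept in ferritin and lost when the cell is shed, and the rest leaves through ferroportin, helped by a ferroxidase. In enterocytes, the hypoxia-inducible factor HIF-2 alpha raises transcription of the apical reductase and transporter and of ferroportin when iron is short. Iron regulatory proteins bind hairpins in some of the messenger RNAs, called iron-responsive elements. Bound in a 5′ UTR they block translation, and bound in the 3′ UTR of the transferrin receptor they protect the message from decay.

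The iron-responsive elements are shown because their place bears on what mRNA counts can show. Control through an element in a 5′ UTR acts on translation, which mRNA counts do not show, and through those of Tfrc on decay of the message. The elements do not cover control of transcription, such as that by HIF-2 alpha. A bulged C, a stem of 5 pairs and the loop CAGTG plus A, C or T were searched, G-U counting as a pair. A lower stem with at least 3 of 4 pairs was also required. The sense strand of GENCODE M21 protein-coding transcripts was used. The pattern was present in 36 of 21901 coding genes (0.164%). It was found in 4 of the 10 genes, at the 5′ UTR of Fth1, Ftl1 and Slc40a1 and at 4 places in the 3′ UTR of Tfrc. For the other genes, no match says only that this strict pattern is not in these transcripts. In the 30 bases below, read 5′ to 3′ on the transcript, capitals mark the loop.
Fth1, transcript bases 87 to 116: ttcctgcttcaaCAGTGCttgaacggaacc
Ftl1, transcript bases 78 to 107: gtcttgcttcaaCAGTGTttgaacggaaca
Tfrc, transcript bases 3315 to 3344: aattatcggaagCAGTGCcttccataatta
Tfrc, transcript bases 3694 to 3723: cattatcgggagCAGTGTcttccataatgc
Tfrc, transcript bases 3759 to 3788: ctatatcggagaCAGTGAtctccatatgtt
Tfrc, transcript bases 3806 to 3835: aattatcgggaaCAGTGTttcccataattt

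The 7 libraries held 15395535 to 20494485 counts. In the quasi-likelihood test of edgeR, 614 of the 14250 tested genes passed an adjusted p under 0.05 (4.31%), 205 higher (1.44%) and 409 lower (2.87%) with T09. All 15 enterocyte markers were detected, and their summed level lay at 56678 to 59203 CPM (read counts scaled to library size, with TMM factors) with vehicle and 54528 to 61696 CPM with T09. Of these 15, 2 were called higher and 0 lower, and the log2 fold change was below 0 for 10 and above 0 for 5. Smooth muscle markers were lower in every T09 library, at 395 to 657 CPM against 1377 to 2187 CPM, and 10 of 10 were called lower. Enteric neuron and glia markers also lay apart, at 7.81 to 7.94 CPM with T09 and 18.2 to 31.1 CPM with vehicle, with 5 of 9 tested genes called lower. Adipocyte markers lay at 3.37 to 9.88 CPM with T09 and 10.3 to 304 CPM with vehicle, with 0 of 6 called by edgeR. Vehicle replicate 1 stood apart, with 778 CPM of pancreatic acinar markers against at most 13.2 CPM in the other vehicle libraries. It also held 3.73 CPM of Brunner gland and gastric markers against at most 0.630 CPM. T09 replicate 1 held 120.2 CPM of endothelial and 242 CPM of macrophage markers, against at most 30.7 and 116 CPM in any vehicle library. In whole duodenum, fewer cells of a type and less RNA per cell cannot be told apart.

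Of the 10 iron absorption genes, 0 passed the adjusted threshold in edgeR, beside 4.31% of all genes, and 3 had an unadjusted p under 0.05: Slc46a1, Cybrd1 and Tfrc. The share of all genes under that unadjusted cut was not counted, so these 3 cannot be read as an excess. DESeq2 called 1 of the 10, Slc46a1, beside 1091 of all genes, and limma-voom called 0, beside 532. The log2 fold changes of the 10 split evenly, 5 below and 5 above 0, with a median of -0.05 against 0.02 over all genes tested. The T09 and vehicle libraries did not overlap for 1 gene lower with T09, Slc46a1, and 1 higher, Tfrc, beside 9.69% and 7.07% of all genes tested. A p that misses the threshold does not show that a gene's level stayed the same.

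**Figure D1:**
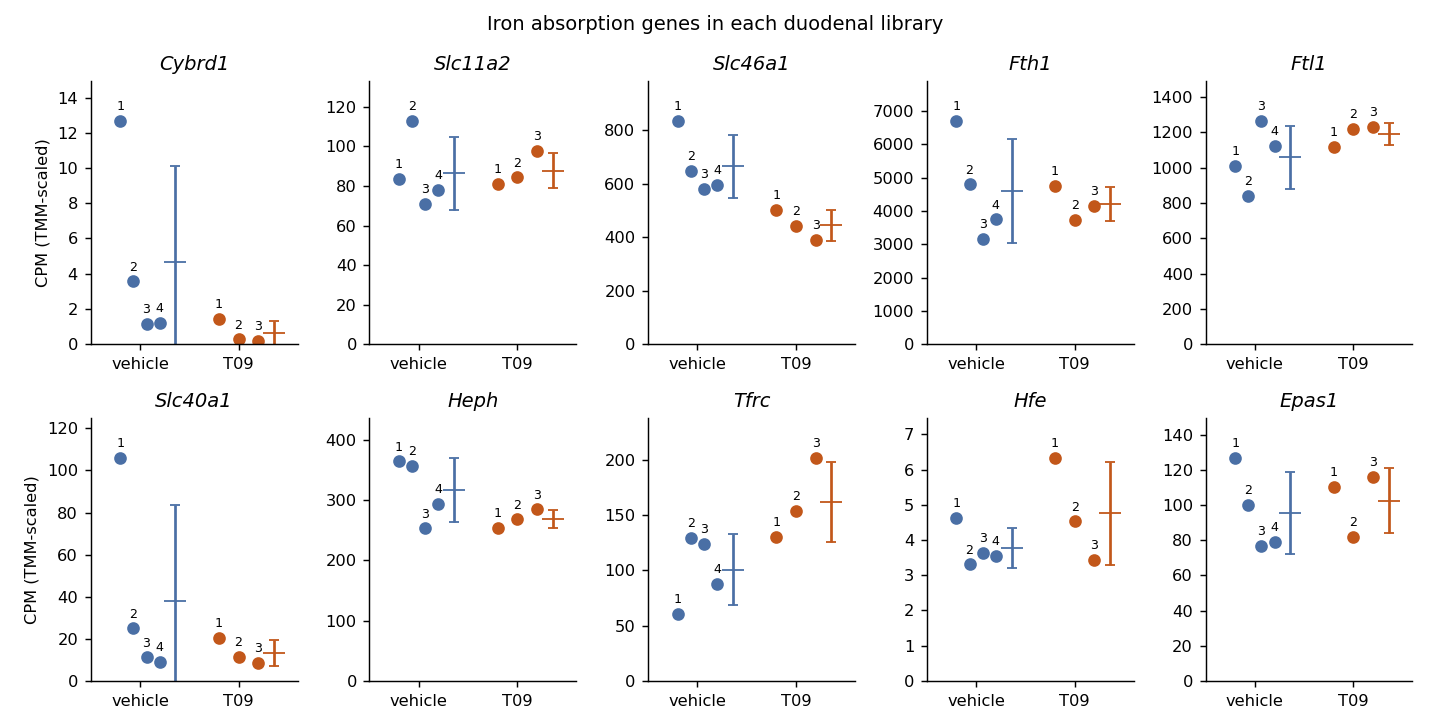
CPM of each gene in each library, with vehicle in blue and T09 in orange, the replicate number above each point, and the mean ± SD beside the points. Bars end at 0 where the SD exceeds the mean (both Cybrd1 groups and Slc40a1 with vehicle), and vehicle replicate 1 is the highest library for both genes.

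Levels were first compared between genes per transcript length, in the FPKM that the authors deposited. Fth1, the ferritin heavy chain that oxidises iron for storage, averaged 5375 ± 1812 FPKM in vehicle duodenum (SD, n = 4) and ranked at 7 among all genes of the table. Ftl1, the ferritin light chain that forms the core, averaged 1325 ± 231 FPKM, at rank 59. Slc46a1 followed with 443 ± 77.5 FPKM, then Heph with 86.7 ± 14.2, Slc11a2 with 65.1 ± 13.5, Tfrc with 51.6 ± 16.5, Slc40a1 with 25.4 ± 30.9 and Epas1 with 18.3 ± 4.43 FPKM. Hfe lay at 2.75 ± 0.426 and Cybrd1 at 0.880 ± 1.04 FPKM. Every neighbouring pair from Heph down to Epas1 overlapped between vehicle libraries, as did Hfe and Cybrd1. Ferritin messages were thus far above those of the transporters, and the apical reductase was the lowest of the 10.

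The order in the middle depends on the length used. The deposited FPKM of Slc11a2 corresponds to a length of 1343 bases, whereas the table lists 4415 bases. From the counts and the listed lengths, Slc11a2 came to 19.6 ± 4.16 RPKM with vehicle (SD, n = 4), below Tfrc at 20.5 ± 6.57 RPKM, and Slc40a1 at 9.63 ± 11.7 RPKM lay below Epas1 at 18.02 ± 4.39 RPKM. The 4 outermost places were the same on both scales: Fth1, Ftl1 and Slc46a1 at the top and Cybrd1 at the bottom.

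**Figure D2:**
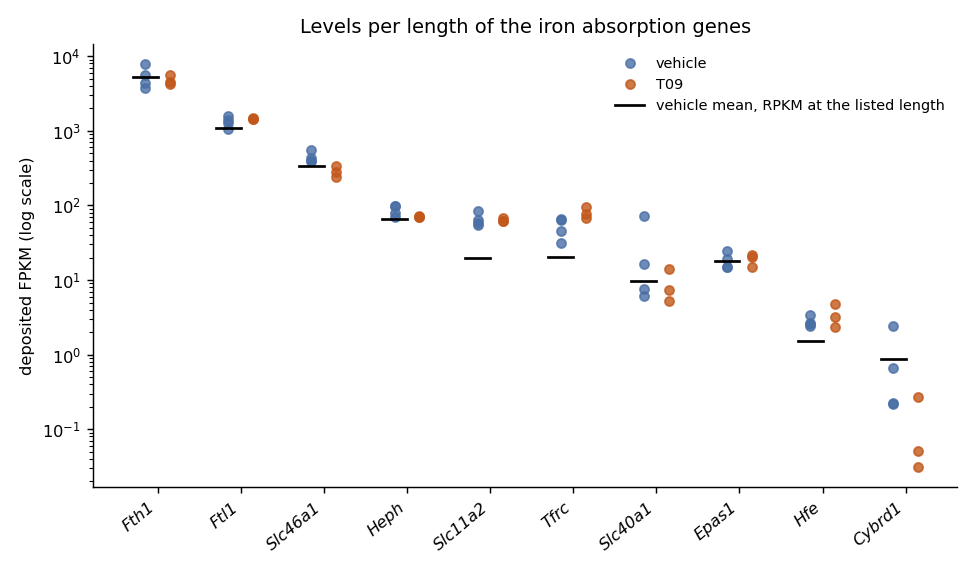
Deposited FPKM of the 10 genes in each library on a log scale, ordered by the vehicle mean, with vehicle in blue and T09 in orange. Black lines give the vehicle mean recomputed as RPKM from the listed gene length, which for Slc11a2 is 19.6 against a deposited mean of 65.1.

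At the luminal side, Slc46a1 had the smallest p of the 10. It encodes the proton-coupled folate transporter, first described as a haem carrier. The vehicle libraries held 835, 647, 582 and 596 CPM and the T09 libraries 504, 442 and 389 CPM. Every T09 library lay below every vehicle library. The mean was 445 ± 57.3 CPM (SD, n = 3) with T09 and 665 ± 116 CPM (SD, n = 4) with vehicle, a log2 fold change of -0.58 (SE 0.15, adjusted p = 0.0674 in edgeR), which did not pass. DESeq2 called it (adjusted p = 0.00441). Over 15 alternatives, DESeq2 among them, the adjusted p ranged from 0.00441 to 0.241 and was under 0.05 in 5. These were DESeq2, no filter, replicate number as a block, and the fits without T09 replicate 1 and without both libraries numbered 1. The last of these was added after the data were seen. Without vehicle replicate 1, the highest library, the log2 fold change was -0.45. On GRCm38 the annotation places Slc46a1 (ENSMUSG00000020829) on chromosome 11, 78465697 to 78472059.

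Cybrd1, the duodenal cytochrome b that reduces ferric iron at the brush border, was sparse and uneven. The vehicle libraries held 12.7, 3.57, 1.15 and 1.19 CPM and the T09 libraries 1.42, 0.276 and 0.178 CPM. Vehicle replicate 1 held 6.44 times the mean of the other vehicle libraries, and T09 replicate 1 lay above vehicle replicates 3 and 4, so the groups overlapped. The log2 fold change was -2.84 (SE 1.01, adjusted p = 0.176 in edgeR). The counts behind T09 replicates 2 and 3 were 5 and 3, with exact 95% Poisson intervals of 1.62 to 11.7 and 0.619 to 8.77, against 244 counts in vehicle replicate 1 (214 to 277). Without vehicle replicate 1 the log2 fold change was -1.61 (adjusted p = 0.353), and without T09 replicate 1 it was -4.31 (adjusted p = 0.0754). Without both libraries numbered 1, a choice made after seeing the data, it was -3.09 (adjusted p = 0.0488). Cybrd1 passed the filter through the vehicle libraries, since T09 replicates 2 and 3 held too few counts, so it could only be called lower. When T09 replicate 3 alone was left out the adjusted p was 0.447. A planned fit with replicate number as a block gave -3.21 (adjusted p = 0.0126 in edgeR). That fit takes same-numbered libraries as pairs. Vehicle replicate 4 has no T09 library of its number, so it adds nothing to that fold change. The labels do not say whether these numbers pair the mice. The intervals cover counting error only. Only 0.814% of all genes tested had a wider ratio of highest to lowest vehicle library than the 11.05 of Cybrd1. On GRCm38 the gene table places Cybrd1 (ENSMUSG00000027015) on chromosome 2, 71117923 to 71142926.

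Slc11a2, which encodes the divalent metal transporter DMT1 that carries ferrous iron across the apical membrane, showed the smallest difference. The vehicle libraries held 83.6, 113, 71.0 and 78.1 CPM and the T09 libraries 80.9, 84.4 and 97.95 CPM. The T09 values lay inside the vehicle range. The log2 fold change was 0.02 (SE 0.16, adjusted p = 0.963 in edgeR), and it lay at -0.03 with library size alone as the scaling. The table counts whole genes, so the transcripts with and without the iron-responsive element were not told apart. A gene on the opposite strand, Gm5475, overlaps its exons and held 60 counts over all libraries; without stated strand handling, reads of such pairs cannot be told apart. On GRCm38 the table places Slc11a2 (ENSMUSG00000023030) on chromosome 15, 100387898 to 100425072.

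The promoter sequence of Cybrd1 and Slc46a1 is shown because these were the apical genes with the lower T09 means. The RefSeq windows of GRCm38.p6 held 6 of the 10 genes, in 8 windows. Capitals mark ACGTG or GCGTG, the core of a HIF binding site, on either strand, where CACGT or CACGC is its reverse. The printed runs end before the annotated gene start.
Cybrd1, chr2:71117804-71117922, plus strand: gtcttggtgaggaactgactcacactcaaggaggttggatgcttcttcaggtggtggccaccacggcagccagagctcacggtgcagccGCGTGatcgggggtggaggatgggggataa
Slc46a1, chr11:78465451-78465696, plus strand: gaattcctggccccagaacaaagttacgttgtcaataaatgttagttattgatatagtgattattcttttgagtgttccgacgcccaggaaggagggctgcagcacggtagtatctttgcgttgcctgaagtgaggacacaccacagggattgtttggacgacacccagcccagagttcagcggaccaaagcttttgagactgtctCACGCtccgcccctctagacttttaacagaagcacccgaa

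Each of these windows held 1 such core, with its first base at -161 of the RefSeq start for Cybrd1 and at -44 for Slc46a1. The core was present in 38.6% of 32851 promoter windows of 250 bases, so a match is common. The DR4 repeat that LXR binds was in 0.0670% of windows and in none of the 8 windows of these genes. A match is a description of the letters and no evidence of binding, and the lack of one says nothing of the factor.

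In storage, the libraries were ordered differently for Fth1 and Ftl1. Fth1 held 6692, 4795, 3156 and 3744 CPM with vehicle and 4752, 3738 and 4143 CPM with T09, a log2 fold change of -0.13 (SE 0.23, adjusted p = 0.833 in edgeR). The T09 libraries lay inside the vehicle range, and vehicle replicate 1 was the highest. Without that library the log2 fold change was 0.11, the opposite sign. Ftl1 held 1008, 841, 1264 and 1122 CPM with vehicle and 1119, 1219 and 1231 CPM with T09, a log2 fold change of 0.17 (SE 0.14, adjusted p = 0.597 in edgeR). Here vehicle replicates 1 and 2 were the low libraries. On GRCm38 the table lists Fth1 (ENSMUSG00000024661) on chromosome 19, 9982703 to 9985092, and Ftl1 (ENSMUSG00000050708) on chromosome 7, 45457944 to 45459884.

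The ratio of Fth1 to Ftl1, per listed length differed between vehicle libraries, at 7.42, 6.37, 2.79 and 3.73, and lay at 4.75, 3.43 and 3.76 with T09. The T09 values sat within the vehicle range. Ftl1 has 7 near-identical copies in the mouse annotation, at 90% identity or more over at least 50% of its transcript. These copies held 129 counts in all against 142705 for Ftl1 (0.0904%), and the sources used here do not say how reads shared between copies were counted.

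At export, Slc40a1, the only known cellular iron exporter ferroportin, also varied widely between vehicle libraries. The vehicle libraries held 106, 24.97, 11.1 and 9.16 CPM and the T09 libraries 20.4, 11.3 and 8.52 CPM. The groups overlapped, and vehicle replicate 1 held 7.02 times the mean of the other vehicle libraries. The log2 fold change was -1.49 (SE 0.80, adjusted p = 0.378 in edgeR), and without vehicle replicate 1 it was -0.16 (adjusted p = 0.889). Macrophages also express ferroportin, and the macrophage list was at 116 CPM in vehicle replicate 1, 55.0 to 90.4 CPM in the other vehicle libraries and 43.1 to 242 CPM with T09. Its part in the Slc40a1 values was not tested. Heph, the membrane ferroxidase hephaestin that works beside ferroportin, held 364, 357, 253 and 293 CPM with vehicle and 254, 268 and 285 CPM with T09. The T09 values again lay within the vehicle range (log2 fold change -0.24, SE 0.14, adjusted p = 0.423 in edgeR). On GRCm38 their loci are Slc40a1 (ENSMUSG00000025993) on chromosome 1, 45908068 to 45926523, and Heph (ENSMUSG00000031209) on chromosome X, 96455359 to 96574485.

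**Figure D3:**
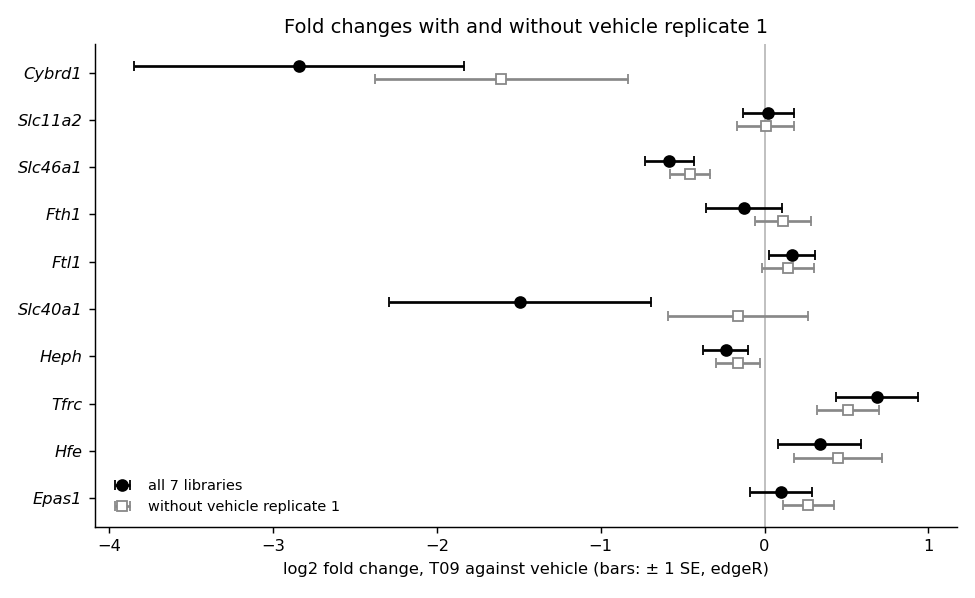
Log2 fold change of T09 against vehicle for the 10 genes with all 7 libraries (filled circles) and without vehicle replicate 1 (open squares), with bars of 1 SE from edgeR. Slc40a1 goes from -1.49 to -0.16, Cybrd1 from -2.84 to -1.61, Slc46a1 from -0.58 to -0.45, and Tfrc from 0.69 to 0.51.

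At the blood-facing side, Tfrc had the largest ratio of the T09 to the vehicle mean among the 10 genes. It encodes the transferrin receptor, which brings in plasma iron and is abundant in dividing crypt cells. The vehicle libraries held 60.7, 129, 124 and 87.9 CPM and the T09 libraries 129.983, 154 and 202 CPM. Every T09 library lay above every vehicle library, but the closest values, vehicle replicate 2 and T09 replicate 1, were nearly equal. The mean was 162 ± 36.5 CPM (SD, n = 3) with T09 and 100.4 ± 32.1 CPM (SD, n = 4) with vehicle, a log2 fold change of 0.69 (SE 0.25, adjusted p = 0.185 in edgeR), which did not pass. Over 15 alternatives the adjusted p lay between 0.0602 and 0.520 and the log2 fold change between 0.50 and 0.83. The proliferating crypt list lay at 254 to 425 CPM with vehicle and 276 to 393 CPM with T09, and it was lowest among the vehicle libraries in replicate 1, as was Tfrc. Its part in the Tfrc values was not tested. On GRCm38 its locus is Tfrc (ENSMUSG00000022797) on chromosome 16, 32608920 to 32632794.

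Hfe, the class I-like protein that binds the transferrin receptor and is mutated in hereditary haemochromatosis, was low. It held 4.62, 3.31, 3.63 and 3.56 CPM with vehicle and 6.33, 4.53 and 3.43 CPM with T09, so the groups overlapped (log2 fold change 0.34, SE 0.25, adjusted p = 0.545 in edgeR). Without T09 replicate 1, its highest library, the log2 fold change was 0.08. Epas1, which encodes HIF-2 alpha, held 127, 99.95, 76.8 and 78.9 CPM with vehicle and 110.2, 81.8 and 116 CPM with T09, inside the vehicle range (log2 fold change 0.10, SE 0.19, adjusted p = 0.836 in edgeR). Endothelial cells also express Epas1. The endothelial list was highest in T09 replicate 1, at 120.2 CPM, while Epas1 was highest among T09 libraries in replicate 3, where that list lay at 18.1 CPM. Its part in the Epas1 values was not tested. On GRCm38 the loci are Hfe (ENSMUSG00000006611) on chromosome 13, 23702034 to 23710854, and Epas1 (ENSMUSG00000024140) on chromosome 17, 86753907 to 86833410.

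Within the vehicle group, the libraries differed for several of the 10 genes. Vehicle replicate 1 was the highest of the 4 for 7 genes, Cybrd1, Slc40a1, Heph, Fth1, Slc46a1, Epas1 and Hfe, and the lowest for Tfrc. It was neither for Slc11a2 and Ftl1. Of all genes tested, 27.1% were highest and 28.1% lowest in that library among the vehicle libraries. The median ratio of the highest to the lowest vehicle library was 1.62 over the 10 genes and 1.41 over all genes tested. The same library was the one with the pancreatic acinar and gastric markers given above, and what these share with the iron genes was not tested. Among the T09 libraries, replicate 1 was the highest for 5 genes, among them Cybrd1 and Slc40a1, beside 34.7% of all genes tested.

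The genes whose profile over the 7 libraries lay closest were found in 8082 genes averaging 10 CPM or more, by root mean square distance of centred log2 CPM. For Slc40a1, whose own profile had a root mean square of 1.1798, these were Tmprss15, the duodenal enteropeptidase that activates trypsinogen (distance 0.659), Pdx1, a homeobox factor of pancreas and proximal duodenum (0.662), and Rnase1, a pancreatic-type ribonuclease (0.677). Tmprss15 held 279, 215, 136 and 90.6 CPM with vehicle and 132, 95.8 and 71.8 CPM with T09. Pdx1 held 37.9, 25.7, 10.8 and 11.5 CPM with vehicle and 21.1, 9.002 and 15.3 CPM with T09. Since Slc40a1 itself was far higher in vehicle replicate 1, genes chosen for a like profile are high there by choice.

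For Cybrd1, with a root mean square of 1.73, the closest were Cyp1a1, an aryl hydrocarbon receptor target (0.767), Slc40a1 itself (0.859) and Nt5e, an ectonucleotidase (0.988). Cyp1a1 held 30.3, 13.7, 6.17 and 13.3 CPM with vehicle and 5.72, 4.42 and 1.72 CPM with T09, without overlap, and did not pass (log2 fold change -1.998, SE 0.54, adjusted p = 0.0770 in edgeR). Nt5e did not overlap either (log2 fold change -1.71, SE 0.45, adjusted p = 0.0697 in edgeR). Slc11a2 and Heph varied little, with a root mean square of 0.205 and 0.202. Their closest profiles were Xpo1, Ugt2a3 and Piga for Slc11a2 (0.0766 to 0.0790) and Rnf141, Cdh17 and Tmem260 for Heph (0.0554 to 0.0722). None of these 6 genes was called.

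**Figure D4:**
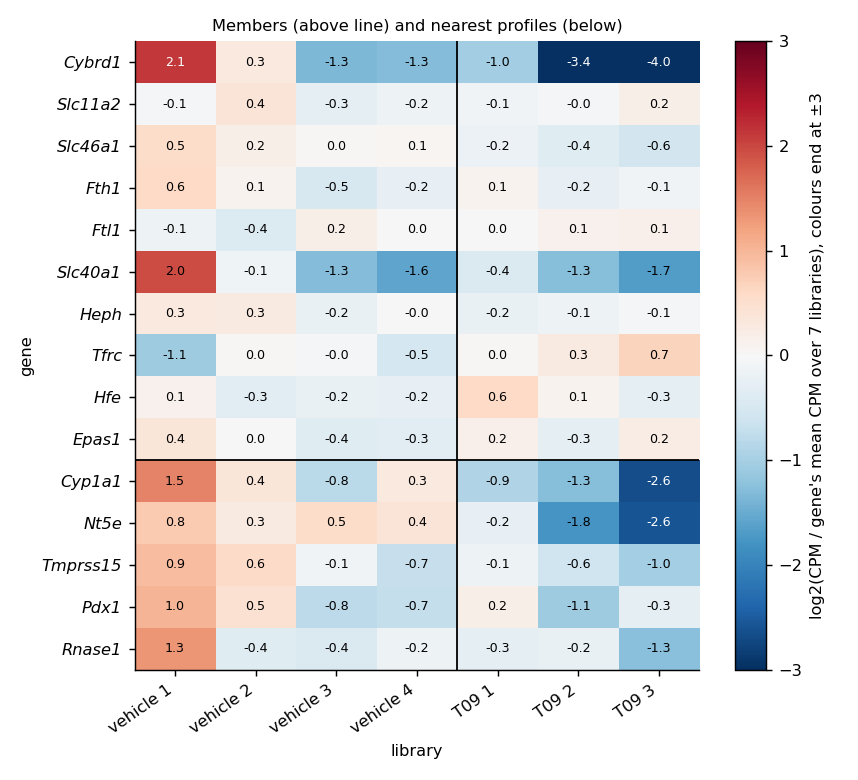
Log2 ratio of each library's CPM to the gene's mean over the 7 libraries, for the 10 genes (above the line) and for the genes closest to Cybrd1 or Slc40a1 (below the line). Vehicle replicate 1 is the warmest column for Cybrd1 and Slc40a1 and the coolest for Tfrc.

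Beyond the 10 genes, the wider iron and oxygen pathways held some changes. In 7 lists with 108 tested genes, 6 rose (5.56%, beside 1.44% of all genes) and 4 fell (3.70%, beside 2.87%). These lists were chosen with earlier results of these data known, so their shares cannot be read as an excess over all genes. Of the 10 calls, 8 were lost when at least 1 of the libraries was left out, and Frrs1 and Cpox passed in each of these 7 fits. The smallest count was 2, without T09 replicate 3. Counts were 5 without vehicle replicate 1, 5 without vehicle replicate 3 and 3 without T09 replicate 2.

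Haem synthesis and handling had 2 of 17 genes higher and 0 lower, with a list median of 0.09. Alas1, the rate-limiting enzyme of haem synthesis outside red cells, held 208, 216, 206 and 132 CPM with vehicle and 329, 395 and 470.0 CPM with T09 (log2 fold change 1.06, SE 0.18, adjusted p = 0.0141 in edgeR). Cpox, coproporphyrinogen oxidase, rose from 82.4 ± 6.74 CPM (SD, n = 4) to 131 ± 4.97 CPM (SD, n = 3), a log2 fold change of 0.67 (SE 0.09, adjusted p = 0.00565 in edgeR). The groups of both genes were apart. Alas1 lost its call without T09 replicate 3 (adjusted p = 0.0606). The abundant genes of the list, the haem-binding membrane protein Pgrmc1 (log2 fold change 0.34, SE 0.13) and the haemopexin receptor Lrp1 (log2 fold change -0.17, SE 0.14), did not pass.

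Among the 26 tested genes of mitochondrial iron and iron-sulphur clusters, 1 was higher and 0 lower (median 0.04). Slc25a37, mitoferrin 1, which carries iron into mitochondria, held 122, 129, 123 and 159 CPM with vehicle and 173, 287 and 281 CPM with T09 (log2 fold change 0.89, SE 0.18, adjusted p = 0.0255 in edgeR). Its T09 libraries all lay above the vehicle libraries, but its call was lost without 5 of the libraries in turn. The chaperone Hspa9 (log2 fold change 0.31, SE 0.11) did not pass.

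Of genes for iron sensing and storage control, 0 of 9 passed edgeR (median 0.15). They include the cytosolic aconitase Aco1, also known as iron regulatory protein 1, at 327 ± 15.2 CPM with vehicle and 366 ± 18.1 CPM with T09 (log2 fold change 0.16, SE 0.09), and the iron chaperone Pcbp1 (log2 fold change 0.05, SE 0.12). Of hepcidin and BMP signalling genes 1 of 15 was lower and 0 higher (median -0.02). Smad7, the inhibitory SMAD, held 110.2, 98.3, 118 and 118 CPM with vehicle and 81.1, 71.0 and 64.9 CPM with T09 (log2 fold change -0.62, SE 0.11, adjusted p = 0.0159 in edgeR). Its T09 libraries all lay below the vehicle libraries, but its call was lost without 3 of the libraries in turn.

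In the list of other iron entry and export genes, 1 of 11 was higher and 2 lower (median -0.09). Frrs1, a ferric chelate reductase related to Cybrd1, rose from 17.6 ± 0.782 CPM (SD, n = 4) to 27.8 ± 1.06 CPM (SD, n = 3), a log2 fold change of 0.66 (SE 0.10, adjusted p = 0.00837 in edgeR). Slc22a17, the lipocalin-2 receptor, was lower, with 73, 52, 58 and 79 counts in vehicle and 29, 15 and 16 in T09 libraries (log2 fold change -1.77, SE 0.29, adjusted p = 0.0108 in edgeR). This call was lost without T09 replicate 2 and without T09 replicate 3. The metalloreductase Steap4 was called lower on 12, 11, 11 and 44 counts with vehicle and 2, 2 and 3 with T09 (adjusted p = 0.0494 in edgeR). It passed the filter through the vehicle libraries alone, so it could only be called lower. The filter of 1 CPM in 3 libraries removed it from testing. Its call was lost in 6 of the 7 fits that left out a library. Vehicle replicate 4, the highest for Steap4, also held 304 CPM of adipocyte markers against at most 38.2 CPM in the other vehicle libraries. The lower levels of Slc22a17 and Steap4 stood beside the lower smooth muscle, enteric neuron and glia, and adipocyte sums given above, whose part was not tested. The most abundant gene of the list, the metal importer Slc39a14, held 237 ± 29.8 and 198 ± 14.9 CPM (log2 fold change -0.26, SE 0.12, adjusted p = 0.300 in edgeR).

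Of HIF pathway genes 1 of 12 was higher and 0 lower (median 0.09), namely Hif1a, which encodes HIF-1 alpha. It held 57.0, 76.3, 56.6 and 45.5 CPM with vehicle and 85.2, 103 and 100.1 CPM with T09 (log2 fold change 0.71, SE 0.16, adjusted p = 0.0397 in edgeR), whereas Epas1 was not called. A difference between Hif1a and Epas1 was not tested. HIF target genes went both ways, with 1 of 18 higher and 1 lower (median 0.02). Bnip3, a mitophagy receptor, rose from 18.6 ± 2.50 to 35.4 ± 9.77 CPM (log2 fold change 0.93, SE 0.19, adjusted p = 0.0274 in edgeR), and Pfkfb3, a regulator of glycolysis, fell from 136 ± 35.6 to 72.5 ± 7.04 CPM (log2 fold change -0.91, SE 0.19, adjusted p = 0.0293 in edgeR). Vegfa, the endothelial growth factor, averaged 194 CPM in both groups. Hif1a lost its call without 5 of the libraries in turn, Pfkfb3 without 5 and Bnip3 without 6.

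**Figure D5:**
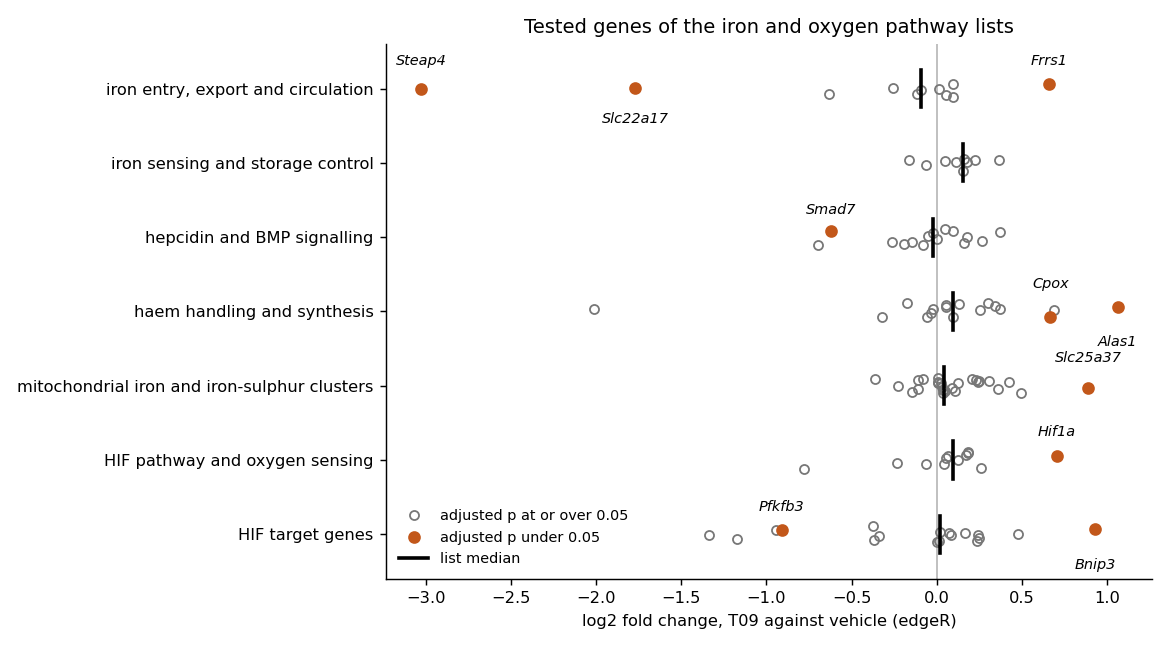
Log2 fold change of each tested gene in the 7 iron and oxygen pathway lists, with filled points for an edgeR adjusted p under 0.05 and a black bar at the list median. The 10 filled points are named, 6 to the right of 0 and 4 to the left, and all list medians lie between -0.09 and 0.15.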

How the data were processed

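Per the file headers, the deposited table gives raw counts of reads and FPKM for every Ensembl gene. Column names match the library titles. Tools listed in the submitters' processing notes, with no role, are DESeq 1.18.0, HTSeq 0.6.1, Bowtie2 2.2.3 and TopHat2 2.0.12. The sources used here do not state genome build, annotation or strand handling. Of the table's genes, 39722 have exactly their GENCODE M21 coordinates, so positions are on GRCm38. The FPKM that the authors deposited were used only for levels between genes.

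Differences were tested on the counts with edgeR 4.0.16 (R 4.3.3): filterByExpr, TMM scaling, the quasi-likelihood test (glmQLFit, glmQLFTest) and Benjamini-Hochberg adjustment over all 14250 genes kept, called under 0.05. The test was also run on simulated counts drawn independently for each library. These held no deviating library, so they say nothing of genes such as Cybrd1 or Slc40a1. A standard error is the log2 fold change divided by the square root of F. CPM use TMM-scaled library sizes. Every p-value measures the spread between mice, and in the replicate block the spread of the differences between same-numbered libraries. Depth was 15395535 to 20494485 counts per library.

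The genes and lists were chosen with earlier results of these data known. Besides the 10 genes, the rule names every called gene and the most abundant genes of 7 lists, some of which are given only in the list medians, and the 3 closest profiles of Slc11a2, Cybrd1, Slc40a1 and Heph. Of the list symbols, 233 of 241 were found; rows without a name took it from a table of gene IDs. Alternatives were DESeq2 1.42.0 and its size factors, library size alone, limma-voom (limma 3.58.1), no filter, 1 CPM in 3 libraries, a replicate block and leaving out each library. Leaving out both libraries numbered 1 was added after the data were seen. Copies were found with blastn 2.17.0.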

Additional observations from a re-analysis of the deposited data

Results flagged for a closer look

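Among the 4 vehicle libraries, an extreme value was set apart when the gap to its neighbour took up more of the whole range than Dixon's test at 95% allows. This held in 8 of 59 sets of values. Chance sets apart about 1 in 20 unselected groups, but some of these genes were chosen from the same library values (Rnase1 for its likeness to Slc40a1, others as called genes), so the count cannot be read against that rate.

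Vehicle replicate 1 was set apart in 5 sets. It held 106 CPM of Slc40a1 (next highest 24.97), 37.9 CPM of Rnase1 (next 13.7), 778 CPM of the summed pancreatic acinar markers (next 13.2) and 3.73 CPM of the summed Brunner gland and gastric markers (next 0.630), and the lowest level of Skp1a, a ubiquitin ligase subunit, at 141 CPM (next 158). Cybrd1, highest in the same library, was not set apart by this criterion.

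Vehicle replicate 4 was set apart in 3 sets. It held 304 CPM of the summed adipocyte markers (next 38.2), 2.37 CPM of Steap4 (next 0.700) and the lowest level of Alas1, at 132 CPM (next 206).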

How the results depend on the processing

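The number of iron absorption genes called, 0 with all libraries, was 1 with DESeq2, 1 with no filter, 2 with the replicate block and 2 without both libraries numbered 1, and 0 to 1 when each library was left out. Slc46a1 was called in each of these fits, and, of those leaving out 1 library, without T09 replicate 1. It was joined by Cybrd1 in the block (log2 fold change -3.21, adjusted p = 0.0126) and in the fit without both libraries numbered 1. Cybrd1 passed the filter through the vehicle libraries, so it could only be called lower. The block takes same-numbered libraries as pairs, and vehicle replicate 4 has no partner there. All genes called, 614, were 1091 with DESeq2, 290 with the replicate block and 251 to 819 when each library was left out. Calls in the pathway lists, 10, were 15 with DESeq2, 11 with library size alone and 2 to 10 when each library was left out. They were 8 with the replicate block, where Frrs1 (adjusted p = 0.0556), Smad7 (0.0618) and Steap4 (0.0947) did not pass. The cause of these moves was not tested. The labels do not say whether replicate numbers pair the mice, and correlations between so few libraries cannot decide it. Deviations from the group mean correlated at 0.271, 0.0284 and -0.0353 for the same-numbered libraries. The value for the libraries numbered 1 was the highest of all pairs, whereas T09 replicates 2 and 3 correlated best with vehicle replicate 4 (0.198 and 0.0568). Slc11a2 changed sign with library size alone (-0.028) and the replicate block (-0.0025), and spanned -0.064 to 0.18 when each library was left out. Fth1 spanned -0.27 to 0.11, Cybrd1 -4.31 to -1.61, Slc40a1 -1.93 to -0.16, Slc46a1 -0.68 to -0.45 and Tfrc 0.50 to 0.83. The fold change of Cybrd1 rested on 5 and 3 counts in T09 replicates 2 and 3, and on 18 to 244 counts in the vehicle libraries.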
